A study of Mus musculus with 4 samples.

Results

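Actin-binding proteins set how much actin of a cell is monomeric and how its filaments are capped, cut and bundled. Described here are 10 genes of this kind, Tmsb10, Tmsb4x, Eps8, Capg, Cap1, Cfl1, Pfn1, Gsn, Lcp1 and Coro1a, of the 22026 genes listed, taken by their symbol, with transcript rows summed per symbol. They were chosen with the differences between RBP-J KO and WT already known, so that contrast is described for them without a test. Both thymosins, Tmsb10 and Tmsb4x, hold actin monomers in reserve, and profilin (Pfn1) and Cap1 recharge and recycle monomers. Cofilin (Cfl1) cuts old filaments, gelsolin (Gsn) cuts and caps them, Capg and Eps8 cap the growing end, L-plastin (Lcp1) bundles filaments, and Coro1a binds filaments together with the Arp2/3 complex, which nucleates branches. Macrophages are rich in these proteins, which they use to crawl, spread and engulf particles.

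RNA was measured by sequencing in 4 libraries of bone marrow derived macrophages from C57BL/6 mice, 2 from wild-type controls (WT) and 2 from Rbpj f/f;LysM cre animals (RBP-J KO). RBP-J, the product of Rbpj, binds DNA for the Notch pathway, and LysM cre deletes floxed alleles in cells of the myeloid lineage; whether the controls carry the Cre is not given in the sources used here. Marrow of mice aged 8 weeks was grown for 3 days in all groups with CMG14-12 supernatant, equivalent to 20 ng/ml of M-CSF, the growth factor of macrophages. The design sets mRNA levels without RBP-J beside those with it; the labels do not say how many mice each library holds, and the sex-linked genes given next differ between the replicates of a genotype, which therefore came from different animals.

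Levels are in FPKM, fragments per unit of transcript length and of library size, and read depth is unknown. Rbpj, the targeted gene, was at 354.6 and 572.7 FPKM in WT replicates 1 and 2, against 51.5 and 77.0 FPKM in RBP-J KO (log2 difference -2.82, SE 0.34; limma adjusted p = 0.4565). All 10 macrophage markers with an entry, among them Csf1r, Emr1 and Cd68, were above 0 in every library. Of these 10, Lyz2 and Cd14 were lower in RBP-J KO by at least 1.5-fold in both pairs defined below. By this rule 3.63% of all genes tested were lower. Lyz2 was at 218.4 and 191.5 FPKM in WT replicates 1 and 2, against 94.3 and 114.9 FPKM in RBP-J KO. The RBP-J KO animals carry LysM cre, whose part in the Lyz2 difference was not tested. Cd14 was at 1715 and 1570 FPKM in WT, against 764 and 800 FPKM in RBP-J KO. The replicate numbers differed in sex-linked genes, with Ddx3y at 192.9 FPKM (WT) and 173.6 FPKM (RBP-J KO) in replicate 1 alone, and Xist at 267.9 FPKM (WT) and 289.9 FPKM (RBP-J KO) in replicate 2 alone, each listed at 0 otherwise. They also differed in 15 neutrophil markers, whose sums were 7468 FPKM (WT) and 8959 FPKM (RBP-J KO) in replicate 1, against 408.3 and 1284 FPKM in replicate 2. RBP-J KO was therefore compared with WT inside each replicate number, called pair 1 and pair 2, and WT is given first in each. Folds are on the log2(FPKM + 1) scale.

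The sequences of the thymosins are shown because Tmsb10 and Tmsb4x encode close relatives whose mRNA levels differed between genotypes to unlike extents. Tmsb10 lies on chromosome 6 and Tmsb4x on chromosome X. Both coding sequences, from the GENCODE M21 transcripts of mouse build GRCm38, have 135 bases with the stop codon and encode 44 residues; capitals mark the 40 positions at which they differ, with 95 positions, or 70.4%, identical.
Tmsb10 coding sequence: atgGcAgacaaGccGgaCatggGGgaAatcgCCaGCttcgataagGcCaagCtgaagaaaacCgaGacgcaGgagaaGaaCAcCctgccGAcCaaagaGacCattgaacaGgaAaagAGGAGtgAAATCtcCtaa
Tmsb4x coding sequence: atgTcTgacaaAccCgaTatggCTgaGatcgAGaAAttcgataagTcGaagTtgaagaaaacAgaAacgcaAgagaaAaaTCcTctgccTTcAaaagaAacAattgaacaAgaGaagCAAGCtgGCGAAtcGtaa
Of the 40 differences, 25 fall on the third base of a codon, and 18 of the codons are identical. The longest run of bases shared by the full transcripts NM_025284 of Tmsb10 and NM_021278 of Tmsb4x is 10 bases. How reads that match several places were counted is not given in the sources used here.

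Among proteins that bind monomers, Tmsb10 was lower in RBP-J KO in each pair, while Tmsb4x was not. Tmsb10 was at 372.9 and 362.8 FPKM in WT replicates 1 and 2, against 121.4 and 115.4 FPKM in RBP-J KO. Both RBP-J KO libraries lay below both WT libraries, and libraries of the same genotype were close together. On the log2(FPKM + 1) scale the difference was -1.61 in pair 1 and -1.64 in pair 2, or 3.05-fold and 3.13-fold lower. Over all 4 libraries limma gave a log2 difference of -1.63 (SE 0.17), the group means being 367.8 ± 7.15 (WT) and 118.4 ± 4.29 FPKM (RBP-J KO; SD, n = 2). In bulk RNA, fewer cells that contain a transcript and less of it per cell cannot be told apart.

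Tmsb4x was at 61597 FPKM in WT replicate 1, 57171 FPKM in RBP-J KO replicate 1, 31917 FPKM in WT replicate 2 and 38839 FPKM in RBP-J KO replicate 2. It was the highest of all 22026 genes in 3 libraries and ranked 3 in WT replicate 2, and alone held 1.41% to 2.58% of the summed FPKM. The groups overlapped and the pairs went opposite ways, 1.08-fold lower in pair 1 and 1.22-fold higher in pair 2. Tmsb4x was therefore 165.2 times as high as Tmsb10 in WT replicate 1 and 470.8 times as high in RBP-J KO replicate 1. In replicate 2 these ratios of FPKM were 88.0 in WT and 336.6 in RBP-J KO. These levels placed Tmsb10 at ranks 3809 and 3692 of all genes in RBP-J KO, against ranks 1207 and 1147 in WT.

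The replicate 2 tables list transcripts, and both abundant transcripts of Tmsb10 were lower in RBP-J KO. NM_025284, which held 80.1% of the gene's FPKM in WT replicate 2, was at 290.7 FPKM there and at 89.1 FPKM in RBP-J KO replicate 2, 3.24-fold lower. NM_001039392 was at 72.1 and 26.2 FPKM, 2.69-fold lower. The transcript NM_001190327 was at 0.01 and 0.04 FPKM. All of them carry the same coding sequence in GENCODE M21 and differ in the start of transcription. The share of NM_025284 was 77.3% in RBP-J KO, and these values come from 1 library per genotype.

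**Figure D1:**
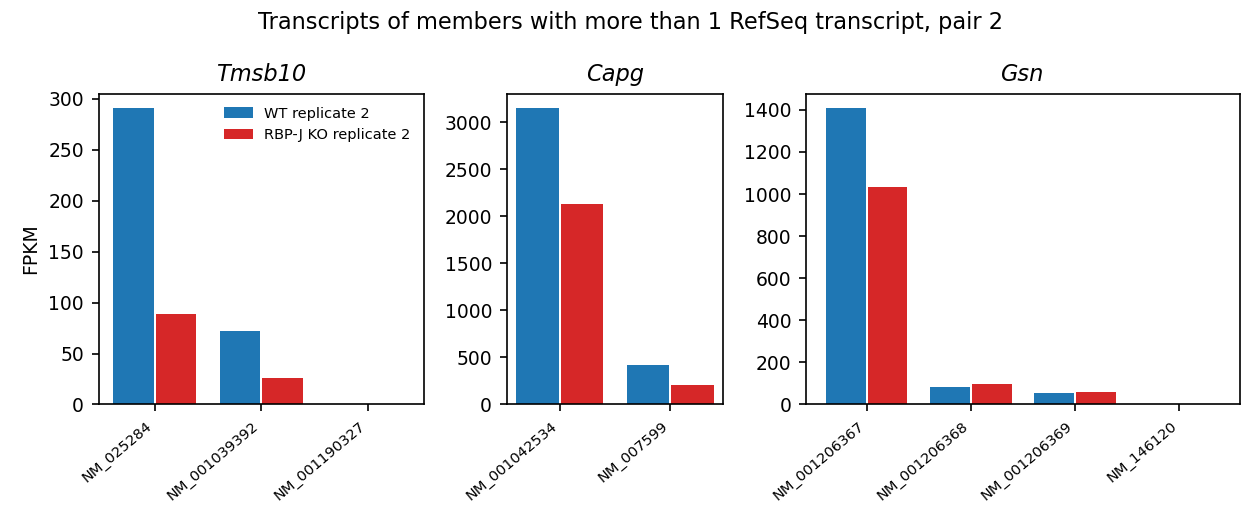
FPKM of each RefSeq transcript of Tmsb10, Capg and Gsn, the members with more than 1 transcript, in WT replicate 2 (blue) and RBP-J KO replicate 2 (red), 1 library each. Both abundant Tmsb10 transcripts and both Capg transcripts were lower in RBP-J KO, whereas of the Gsn transcripts only NM_001206367 was.

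Pfn1, Cap1 and Cfl1, which turn monomers and filaments over, differed little between genotypes. Pfn1 was at 7791 against 7257 FPKM (pair 1) and 5553 against 5886 FPKM (pair 2), so the pairs went opposite ways by 1.07-fold and 1.06-fold. Cap1 was at 4034 against 3750 FPKM (pair 1) and 2590 against 2817 FPKM (pair 2), again with opposite signs. For both genes the libraries separated by replicate number and not by genotype. Cfl1 was at 6820 against 5792 FPKM (pair 1) and 6015 against 5437 FPKM (pair 2), lower in RBP-J KO by 1.18-fold and 1.11-fold. The Cfl1 groups did not overlap, and limma gave a log2 difference of -0.19 (SE 0.22) over all libraries.

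Eps8 had the largest difference of the 10 members. The protein caps and bundles filaments, and in a complex with Abi1 and Sos1 it activates the GTPase Rac. Eps8 was at 65.3 and 75.1 FPKM in WT replicates 1 and 2, against 14.1 and 14.8 FPKM in RBP-J KO. Every RBP-J KO value was below every WT value. The difference was 4.40-fold in pair 1 and 4.81-fold in pair 2, with a log2 difference of -2.20 (SE 0.21) over all libraries and group means of 70.2 ± 6.92 and 14.4 ± 0.54 FPKM (SD, n = 2). Eps8 has 1 transcript row, NM_007945, in the replicate 2 tables. Its relatives Eps8l1 and Eps8l2 were listed at 0 in all 4 libraries, and Eps8l3 at no more than 0.04 FPKM.

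The other capping protein, Capg, was also lower in RBP-J KO in each pair, by less. Capg was at 3632 and 3572 FPKM in WT replicates 1 and 2, against 2897 and 2343 FPKM in RBP-J KO. The groups did not overlap, and the difference was 1.25-fold in pair 1 and 1.52-fold in pair 2, so that it passed 1.5-fold in pair 2 alone. In pair 2 its main transcript NM_001042534 was at 3149 and 2135 FPKM, 1.47-fold lower, and NM_007599 at 423.2 and 208.3 FPKM, 2.03-fold lower. Over all libraries limma gave a log2 difference of -0.47 (SE 0.22).

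Gsn, Lcp1 and Coro1a stayed within 1.5-fold in both pairs. Gsn was at 1071 against 1117 FPKM (pair 1) and 1549 against 1188 FPKM (pair 2), with WT replicate 2 the highest library. There its main transcript NM_001206367 was at 1407 FPKM, against 1034 FPKM in RBP-J KO, while NM_001206368 and NM_001206369 differed by 1.12-fold and 1.03-fold the other way. The precursor form NM_146120, which encodes secreted gelsolin, was at 0.01 and 0.02 FPKM. Lcp1 was at 4755 against 4806 FPKM (pair 1) and 3692 against 3474 FPKM (pair 2), and libraries grouped by replicate number. Coro1a was the only member higher in RBP-J KO in both pairs, at 1216 against 1436 FPKM (pair 1) and 1333 against 1371 FPKM (pair 2), or 1.18-fold and 1.03-fold.

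**Figure D2:**
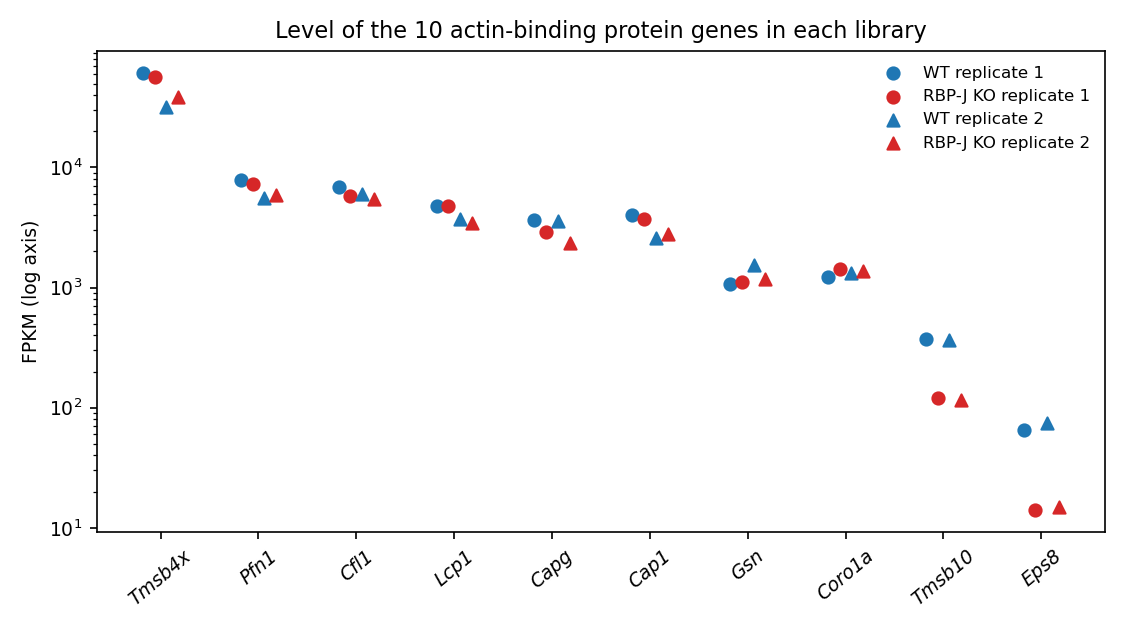
FPKM (log axis) of each member in every library, ordered by WT mean; blue, WT; red, RBP-J KO; circles, replicate 1; triangles, replicate 2. Tmsb10 and Eps8 separate clearly by genotype, with RBP-J KO at 115.4 to 121.4 FPKM and 14.1 to 14.8 FPKM, while Tmsb4x, Pfn1, Cap1 and Lcp1 separate by replicate number.

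Both pairs reached 1.5-fold for 2 of the 10 members, Tmsb10 and Eps8, lower in RBP-J KO; over all 11851 genes tested, 3.63% were lower and 3.86% higher by this rule. Because the members were chosen on this contrast, nothing is read from that share. In pair 1 alone the same 2 members were lower and 0 higher by 1.5-fold (12.1% and 10.4% of all genes), and in pair 2 alone 3 were lower, with Capg, and 0 higher (8.18% and 6.48%). Of the other 8 members, 5 had differences of opposite sign in the pairs, against 39.4% of all genes. Groups did not overlap for 4 members on the lower side (Tmsb10, Eps8, Capg and Cfl1) and for 1 on the higher side (Coro1a), where 18.2% of all genes were lower and 11.7% higher without overlap. The members had a median log2 difference of -0.10 and that of all genes tested -0.05. Ranked by the smaller of both within-pair decreases, Eps8 was at place 22 and Tmsb10 at place 55 of the 11851 genes, and Capg at place 972.

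**Figure D3:**
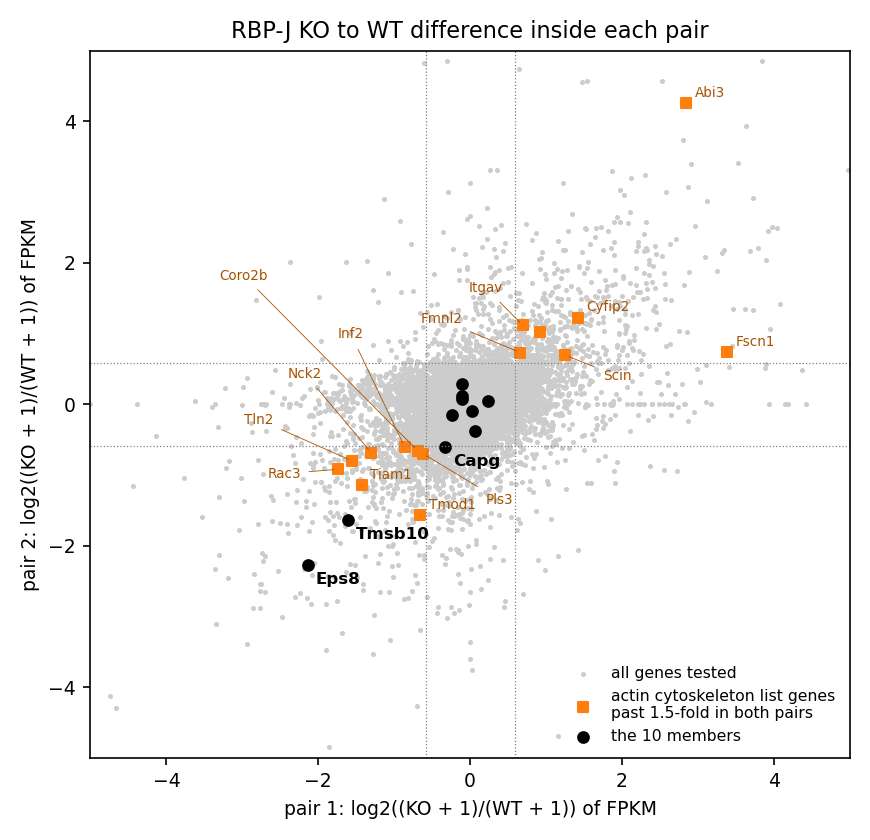
Log2 difference of RBP-J KO to WT in pair 1 (x axis) and pair 2 (y axis) for all genes tested (grey), the 10 members (black) and the genes of the actin cytoskeleton lists past 1.5-fold in both pairs (orange, 1 without a name); dotted lines mark 1.5-fold, and 12 genes lie on or beyond the plotted range of 5. Tmsb10 (-1.61 and -1.64) and Eps8 (-2.14 and -2.27) lie on the lower left, away from the other members near the origin.

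FPKM is scaled by transcript length, which allows levels to be set in order. From the highest mean over the 4 libraries, the members ran Tmsb4x, Pfn1, Cfl1, Lcp1, Cap1, Capg, Coro1a, Gsn, Tmsb10 and Eps8. This order held in 3 of 4 libraries for Pfn1 over Cfl1, for Cap1 over Capg and for Coro1a over Gsn, pairs of neighbours whose ranges overlapped. Lcp1 was above Cap1 in all 4 libraries although their ranges overlapped, and no other neighbours overlapped. Together the members held 3.82% and 3.60% of the summed FPKM of replicate 1 (WT and RBP-J KO) against 2.50% and 2.89% in replicate 2.

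Between the replicate numbers, a contrast that did not choose the members, 7 of 10 were higher in replicate 1 in both genotypes. The share of all genes that were so was not counted, so nothing is read from this number. Summed FPKM was also higher in replicate 1, at 2389348 (WT) and 2346029 (RBP-J KO) against 2264597 and 2125327 in replicate 2. Of the members, Tmsb4x, which lies on the X chromosome, differed most between replicate numbers, at 1.93-fold in WT and 1.47-fold in RBP-J KO. Cap1 was 1.56-fold and 1.33-fold higher. No member was at least 1.5-fold lower in replicate 2 in both genotypes, where 8.57% of all genes were, and none was so much higher, where 4.66% were. Eps8 and Gsn were higher in replicate 2 in both genotypes. Tmsb10 differed between replicate numbers by 1.03-fold and 1.05-fold, far less than between genotypes. Sex, table layout and marrow cell markers all changed with the replicate number and cannot be told apart.

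Levels of other cell types were set beside these differences. Neutrophil markers were higher in RBP-J KO by a median log2 difference of 0.31 in pair 1 and 1.85 in pair 2. Of these 15, 6 were higher by 1.5-fold in both pairs, where 3.86% of all genes were. Their summed level ranged from 408.3 to 7468 FPKM in WT and from 1284 to 8959 FPKM in RBP-J KO. None was at 0 in all libraries. Across the pairs, Tmsb10 was lower by 3.05-fold and 3.13-fold and Eps8 by 4.40-fold and 4.81-fold. The 9 dendritic cell markers summed to 37.7 against 182.7 FPKM (pair 1) and 52.7 against 40.5 FPKM (pair 2), with 1 and 0 of them listed at 0 in pair 1 and 5 and 4 in pair 2. The 12 platelet and megakaryocyte markers summed to 3632 against 2946 FPKM (pair 1) and 3070 against 4359 FPKM (pair 2). Most of each sum was Pf4, at 3031 against 2478 FPKM (pair 1) and 3015 against 4297 FPKM (pair 2). Ppbp was at 404 against 271 FPKM (pair 1) and 8.00 against 21.2 FPKM (pair 2). Of the 12, 0 were listed at 0 in pair 1, but 6 (WT) and 3 (RBP-J KO) in pair 2. Fibroblast and stromal markers summed to no more than 13.4 FPKM in any library, with Pdgfra, Dcn, Lum, Lepr and Fbln1 listed at 0 in all 4. Lymphoid markers summed to at most 78.2 FPKM and erythroid, mast cell and basophil markers to at most 34.4 FPKM. The part of these cells in the differences of the members was not tested.

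The genes whose profile over the 4 libraries was nearest to that of Tmsb10 were Timp2, Etv1, Padi4, Lamc1 and Rnase4. Likeness was the Euclidean distance between log2(FPKM + 1) values centred on each gene's mean, among 9001 genes that are no members and average 20 FPKM or more, and these distances ran from 0.23 to 0.40. Timp2 was at 771.6 against 269.9 FPKM (pair 1) and 692.8 against 274.0 FPKM (pair 2). Nearest to Eps8 were Cbr2, Cacna1a, Fabp4, Padi4 and Pmp22, at distances from 0.196 to 0.596. Cbr2 was at 428.4 against 100.2 FPKM (pair 1) and 470.5 against 87.7 FPKM (pair 2).

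Around the members, 177 other genes of the actin cytoskeleton in 12 lists were followed, of which 141 were measured. By limma with Benjamini-Hochberg adjustment 0 of the 141 passed an adjusted p of 0.05, as did 0 of all 11851 genes (0.0%, smallest adjusted p 0.294). At an unadjusted p under 0.05 in limma there were 12 of the 141 and 524 of all 11851 genes, a larger share of the lists. The lists were chosen with earlier results of these data known, so nothing is read from that. Limma with replicate block gave 1557 of all genes at an unadjusted p under 0.05. In that fit 0 were past the adjusted threshold (smallest adjusted p 0.0642). By the 1.5-fold rule in both pairs 7 were higher and 8 lower, or 4.96% and 5.67%, near the 3.86% and 3.63% of all genes. With upper-quartile scaling these counts were 9 and 6. The median log2 difference of the 141 was -0.06, against -0.05 for all genes. At the shares of all genes a short list can hold 0 genes past 1.5-fold in both pairs, so nothing is read from a 0.

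All 4 measured actins were lower in RBP-J KO by at least 1.5-fold in pair 1, where 12.1% of all genes were. Pair 1 holds 1 library per genotype. Actb, the main cytoplasmic actin, was at 25448 against 16421 FPKM (pair 1) and 13110 against 13264 FPKM (pair 2), so the pairs did not share a direction. Actg1, the other cytoplasmic actin, was at 2135 against 1372 FPKM (pair 1) and 1715 against 1574 FPKM (pair 2). None of the 4 measured actins passed 1.5-fold in both pairs, where 3.86% of all genes were higher and 3.63% lower. Their median log2 difference was -0.65 in pair 1 and -0.11 in pair 2.

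Of 14 genes of the list of Eps8 partners and of Rac GTPases with their activators, 0 were higher and 2 lower by 1.5-fold in both pairs, where 3.86% and 3.63% of all genes were. Rac3, a Rac GTPase, was at 44.4 against 12.6 FPKM (pair 1) and 48.4 against 25.1 FPKM (pair 2). Tiam1, an exchange factor that loads Rac with GTP, was at 34.5 against 12.2 FPKM (pair 1) and 23.0 against 9.85 FPKM (pair 2). For both genes the RBP-J KO libraries lay below the WT libraries. Rac1 was at 1726 against 1815 FPKM (pair 1) and 1442 against 1634 FPKM (pair 2). Rac2, another Rac GTPase, was at 291 against 494 FPKM (pair 1) and 516 against 632 FPKM (pair 2). It was thus 1.69-fold and 1.22-fold higher in RBP-J KO, with groups that overlapped. Cdc42, the related GTPase, differed by 1.01-fold and 1.04-fold. Counting differences of any size, 4 of the 14 genes had more mRNA in RBP-J KO in each pair, and 5 had less.

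The WASP and WAVE families, which switch on the Arp2/3 complex, had 2 of 14 measured genes higher and 1 lower by 1.5-fold in both pairs. These were 14.3% and 7.14% of the list, where 3.86% and 3.63% of all genes were. Abi3, a WAVE complex subunit of the Abi family, was at 22.1 against 165.2 FPKM (pair 1) and 4.74 against 108.7 FPKM (pair 2), 7.20-fold and 19.1-fold higher (log2 difference 3.55, SE 0.72; limma adjusted p = 0.594). Its relative Abi1, the Eps8 partner, was at 557.3 against 584.6 FPKM (pair 1) and 490.4 against 442.7 FPKM (pair 2). Cyfip2, another WAVE subunit, was at 69.7 against 188.6 FPKM (pair 1) and 55.4 against 131.0 FPKM (pair 2) (limma adjusted p = 0.594). The adaptor Nck2 was lower, at 52.6 against 20.7 FPKM (pair 1) and 62.4 against 38.5 FPKM (pair 2). None of the 9 genes of the Arp2/3 complex passed 1.5-fold in both pairs, and Arpc2, its subunit of highest mean, differed by 1.06-fold and 1.03-fold.

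Of 17 other proteins of monomer binding, severing and turnover, 0 passed 1.5-fold in both pairs, where 3.86% of all genes were higher and 3.63% lower. Cotl1, coactosin, was at 2440 against 2151 FPKM (pair 1) and 2967 against 2750 FPKM (pair 2). Among 11 other capping proteins and gelsolins, 1 was higher and 1 lower by 1.5-fold in both pairs, each 9.09% of the list. Tmod1, which caps the slow-growing end, was lower at 3.90 against 2.11 FPKM (pair 1) and 9.96 against 2.70 FPKM (pair 2). Scin, a gelsolin relative, was at 1.36 against 4.62 FPKM in pair 1 and listed at 0 against 0.62 FPKM in pair 2. The fold of Scin in pair 2 depends on the 1 FPKM added before taking logs. Of the capping protein subunits, Capza2 was 1.23-fold and 1.27-fold higher and Capzb 1.12-fold and 1.05-fold higher. Capza1 was 1.12-fold and 1.03-fold lower.

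In the list of 15 other bundling and crosslinking proteins, 1 was higher and 1 lower by 1.5-fold in both pairs. Each was 6.67% of the list, where 3.86% of all genes were higher and 3.63% lower. Pls3, T-plastin, was at 154.9 against 100.2 FPKM (pair 1) and 93.8 against 57.5 FPKM (pair 2), while its leukocyte relative Lcp1 differed by 1.01-fold and 1.06-fold. Fscn1, fascin, was at 1.83 against 28.5 FPKM in pair 1 and listed at 0 against 0.67 FPKM in pair 2. The fold of Fscn1 in pair 2 depends on the 1 FPKM added before taking logs. The 9 dendritic cell markers, a cell type that also contains fascin, summed to 37.7 against 182.7 FPKM in the first pair and to 52.7 against 40.5 FPKM in the second, and their part in the Fscn1 difference was not tested. Of 5 other coronins, Coro2b was lower, at 1.94 against 0.82 FPKM (pair 1) and 4.21 against 2.31 FPKM (pair 2). It alone of them passed 1.5-fold in both pairs, or 20.0% of the list, where 3.63% of all genes were lower. Coro1b, a close relative of Coro1a, was 1.84-fold and 1.31-fold higher, and Coro1c 1.38-fold and 1.35-fold lower.

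Formins, which build unbranched filaments, gave 1 gene in each direction of the 12 measured with Ena/VASP proteins. Each was 8.33% of the list, where 3.86% of all genes were higher and 3.63% lower. Fmnl2 was higher, at 35.6 against 56.9 FPKM (pair 1) and 15.6 against 26.5 FPKM (pair 2). Inf2 was lower, at 133.4 against 72.8 FPKM (pair 1) and 67.6 against 44.3 FPKM (pair 2). Podosome and adhesion proteins, 20 of them measured, had a median log2 difference of 0.05. Among them Itgav, an integrin chain, was 1.62-fold and 2.17-fold higher, at 412.5 against 668.7 FPKM (pair 1) and 77.2 against 168.5 FPKM (pair 2). Its groups overlapped (log2 difference 0.91, SE 1.05). Itgav was 5.34-fold (WT) and 3.97-fold (RBP-J KO) higher in replicate 1 than in replicate 2, more than between genotypes. Tln2, a talin, was lower, at 3.07 against 0.39 FPKM (pair 1) and 2.61 against 1.07 FPKM (pair 2). None of 14 myosins and tropomyosins passed, Tpm4 being 1.78-fold and 1.44-fold lower. Srf, the factor that drives many actin genes, was at 62.2 against 55.3 FPKM (pair 1) and 66.2 against 68.4 FPKM (pair 2), and 0 of the 6 measured genes of its list passed.

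**Figure D4:**
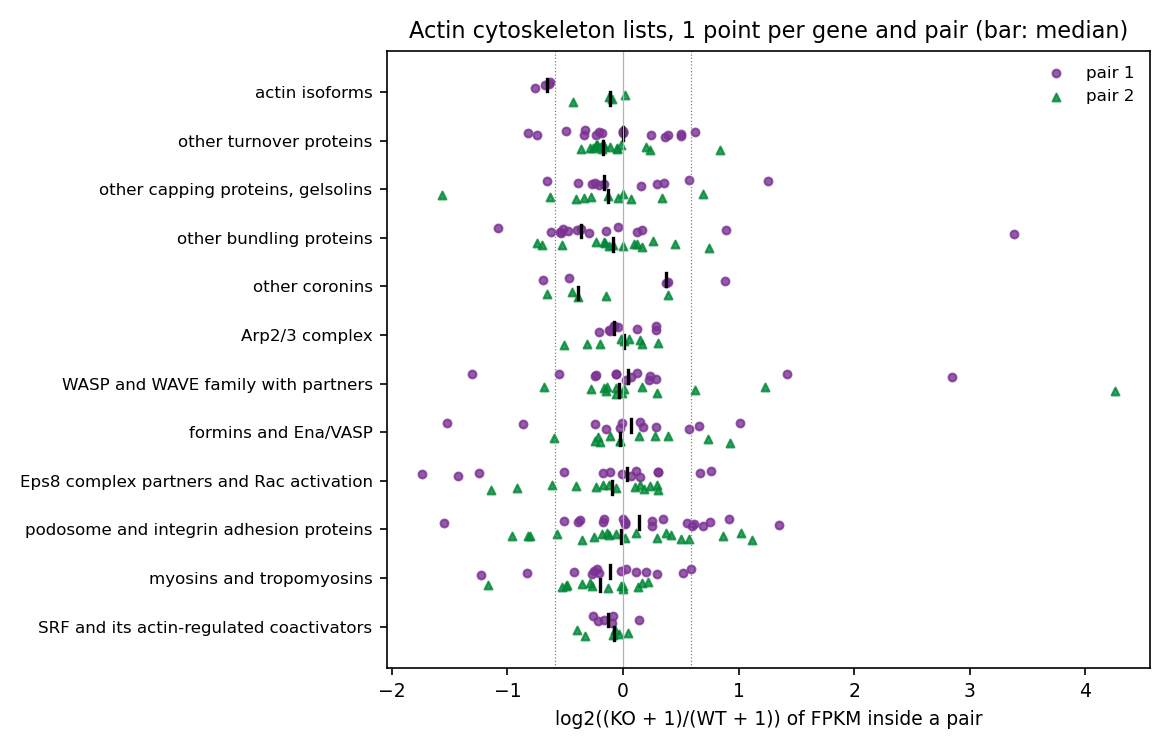
Log2 difference of RBP-J KO to WT (x axis) for every measured gene of the 12 actin cytoskeleton lists, in pair 1 (circles) and pair 2 (triangles), with a bar at each median; dotted lines mark 1.5-fold. The Arp2/3 complex lies within 1.5-fold in both pairs, while Abi3 of the WASP and WAVE list lies farthest to the right in pair 2.

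Promoter windows of the members were searched for the core letters recognised by RBP-J, since the knockout removes that factor. Windows from 250 bases before to 50 bases after a gene's start, from RefSeq on build GRCm38.p6, were given for 9 of 10 members in 15 windows; Eps8 had none. The letters TGGGAA were looked for on both strands and were found in 25.6% of all 32851 windows. Among the members they were found in 3 windows of 2 genes, Capg and Gsn. A CArG box, bound by SRF, was in 0 of the 15 windows and in 1.63% of all windows. The window of Tmsb10 that starts the main transcript NM_025284 (chr6:72958434-72958733, minus strand) is shown because this gene was lower, and it holds no TGGGAA; that of Capg (chr6:72549397-72549696, plus strand), at a RefSeq start near which neither measured transcript begins, holds it in capitals, starting 138 and 58 bases before the start.
Tmsb10 promoter window: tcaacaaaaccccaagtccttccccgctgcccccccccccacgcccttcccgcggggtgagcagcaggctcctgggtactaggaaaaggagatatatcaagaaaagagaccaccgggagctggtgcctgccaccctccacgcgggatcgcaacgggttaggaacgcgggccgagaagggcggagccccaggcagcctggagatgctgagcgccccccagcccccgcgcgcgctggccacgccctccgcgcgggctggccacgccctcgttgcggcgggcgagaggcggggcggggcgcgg
Capg promoter window: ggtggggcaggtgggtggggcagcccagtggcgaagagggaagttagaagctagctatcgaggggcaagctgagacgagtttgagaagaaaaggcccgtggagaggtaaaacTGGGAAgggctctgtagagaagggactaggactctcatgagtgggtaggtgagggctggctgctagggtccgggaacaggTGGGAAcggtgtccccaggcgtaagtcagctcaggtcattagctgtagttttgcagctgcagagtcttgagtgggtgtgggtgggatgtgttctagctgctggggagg
These matches describe letters in the windows and not binding.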

How the data were processed

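Per the submitters' processing notes, the authors aligned reads with TopHat and quantified them with Cufflinks on mouse build mm9; for tool versions, annotation and scaling the sources used here give nothing. The deposited values were taken to be FPKM made by the authors, since the file headers name no unit. In replicate 2, FPKM times transcript length summed to 5.29 (WT) and 5.02 (RBP-J KO) times what the unit's definition gives (lengths for 92.4% of transcripts), so absolute levels are only described. Read depth is unknown and was not estimated from low values.

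Replicate 1 tables list genes and replicate 2 tables transcripts, which were summed per symbol; 25 symbols turned into dates were restored. The 11851 genes averaging 1 FPKM or more were tested on log2(FPKM + 1), where differences of low genes are understated, with limma 3.58.1 in R 4.3.3, group as the only term, a variance trend, two-sided, Benjamini-Hochberg adjusted, threshold 0.05. Folds are on this scale. Log2 differences and SE are from limma. That fit leaves out the replicate number, so an SE also holds differences between replicate numbers. The procedure was also run on simulated data with independent noise and no difference between replicate numbers. These libraries do differ by replicate number, so that run does not show what can be detected here. Figures used matplotlib 3.10.9.

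The members and lists were chosen with earlier results of these data known. Named were all members, list genes past 1.5-fold in both pairs and otherwise up to 3 of the highest, the 5 nearest profiles, Rbpj, and the markers a sentence needs; Eps8l1, Eps8l2 and Eps8l3 were added after their values were seen. The values of 1 list gene are not reported here. Planned protein sequences were replaced by coding sequences from GENCODE M21.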

Additional observations from a re-analysis of the deposited data

How the results depend on the processing

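Of the 12 alternatives run for each member, both filters on low values and the replicate block cannot move a log2 difference in this balanced design, nor can the largest transcript for a gene with 1. Under the others (other pseudocounts and scalings, the largest transcript per symbol, each library left out in turn) Tmsb10 and Eps8 were lower in RBP-J KO, with log2 differences from -1.66 to -1.57 and from -2.30 to -1.95. Their smaller within-pair difference stayed past 1.5-fold under the other pseudocounts and scalings and the largest transcript, between -1.62 and -1.57 and between -2.21 and -1.88. Capg ranged from -0.62 to -0.31, Cfl1 from -0.28 to -0.10 and Coro1a from 0.07 to 0.22, with no change of sign. Groups did not overlap for Tmsb10, Eps8, Capg, Cfl1 and Coro1a. For them neither leaving out a library nor another pseudocount could change the sign, so these alternatives show only the range of sizes. The sign changed under 2 alternatives for Tmsb4x (-0.39 to 0.56) and Cap1 (-0.31 to 0.33), 3 for Pfn1 (-0.25 to 0.24), 1 for Gsn (-0.43 to 0.11) and 4 for Lcp1 (-0.27 to 0.20). With a pseudocount of 5, which shrinks low genes, 282 genes in place of 430 were lower by 1.5-fold in both pairs. Of the list genes 4 in place of 8 were lower. On the higher side the counts were 335 in place of 457 genes and 5 in place of 7 list genes. With a minimum mean of 5 FPKM, which tests fewer genes, 5 list genes were lower and 6 higher. The count past the adjusted threshold was 0 in every fit, including those that leave out a library, which assume that the lone library varies like the other group. The replicate block also gave 0. Deviations from the group means were correlated across genes between libraries of equal number (r = 0.64), but the labels do not say that the numbers pair them. Unknown depth limits how low values such as those of Tmod1 can be read.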
